A study of Mus musculus with 6 samples.

Results

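Transcripts for 47 genes that write, erase or read lysine acetylation were examined in the head ectoderm of mouse embryos labelled as lacking the acetyltransferases CBP and p300 and of wild-type embryos. The genes were chosen by name, with earlier results of these data known. They comprise CBP and p300 with the proteins they bind, the other acetyltransferases, the nuclear receptor coactivators, the deacetylases and sirtuins, and the bromodomain proteins. Of the 47 genes, 45 had at least 1 probe on the array, with 100 probes in all out of 45281. Of these, 29 genes were measured with 49 tested probes, out of 7141 genes and 12697 tested probes on the whole array. A probe was tested where every array of KO, of WT or of both gave a signal above background, defined by a detection p-value under 0.01.

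Acetyltransferases transfer an acetyl group from acetyl-CoA to lysines of histones and of other proteins, and deacetylases remove it. Bromodomain proteins bind the acetylated lysines and bring further factors to chromatin. CBP and p300 form a family of their own, KAT3, and serve as coactivators for a large number of DNA-binding factors, among them CREB, whereas class I, II and IV deacetylases need zinc and sirtuins consume NAD. The comparison asked whether transcripts of related enzymes differed in ectoderm in which both KAT3 genes were targeted.

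Both genotypes were profiled at E9.5 on a mixed FVB and 129 background, with 3 Illumina arrays each. The knockout arrays (KO) held surface ectoderm labelled CBP/p300-/-, and the wild-type arrays (WT) held lens placode, the thickened ectoderm from which the lens grows. The tissue was cut out of frozen sections by laser, the RNA from 3 embryos made up 1 pool per genotype, and 3 amplifications of each pool were put on 1 array each. By these labels the arrays of 1 genotype are technical repeats, and every p-value and interval below measures only the spread between amplifications. The paper, which describes arrays of older embryos, calls its sets biological replicates. Whether it means these arrays is not settled by the sources used here, and the labels were followed. The mutants of the study are conditional, with floxed alleles of both genes and a Cre active in the presumptive lens ectoderm. Pax6-Cre is the line its methods give for dissected embryos that were a day older, and which Cre line the E9.5 embryos carried is not given in the sources used here. Because each genotype came with a tissue label of its own, genotype and dissected tissue cannot be told apart.

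Between 14759 and 17195 probes were above background on the KO arrays and between 12212 and 15325 on the WT arrays. WT replicate 1 stood apart, with a raw median intensity of 141 against 85.6 to 95.5 on the other arrays. Correlations between arrays were 0.847 to 0.857 within KO and 0.773 to 0.791 within WT. Between the genotypes they were 0.734 to 0.777, a range that overlapped the one within WT. Some markers of other tissues moved with the genotype. All 6 tested blood markers were higher in KO (median 1.28 on the log2 scale), with a summed normalized intensity of 14017 to 14681 in KO and 5911 to 7562 in WT, while Gata1 was not above background on any array. Of the 11 tested lens placode markers, 10 were lower in KO (median -1.91), with sums of 5399 to 6774 in KO and 10990 to 12353 in WT. Of the 10 tested surface ectoderm markers, 9 were lower in KO (median -0.42). Of the 10 tested mesenchyme and neural crest markers, 7 were higher in KO (median 0.89), among them Alx4 (4.03) and Col1a1 (2.98), whereas Pdgfra (-2.21) and Snai2 (-2.84) were lower. Their sums of 2741 to 3294 in KO and 2590 to 4591 in WT overlapped. For the optic vesicle 3 markers were tested (median 0.50), with Otx2 (1.48) and Rax (0.50) higher in KO and Mitf (-0.10) lower. The optic vesicle sums of 1449 to 2205 in KO and 866 to 4769 in WT overlapped. The endothelial markers gave 1 tested gene, Cldn5 (3.65), with Pecam1, Cdh5 and Kdr above background on no array. Alx4, Otx2 and Cldn5 were above background on 0 WT arrays and Col1a1 on 1. Their differences are fitted values against background readings. Xist, which is expressed from the inactive X chromosome, was above background on 3 KO and 0 WT arrays. Of the Y-linked markers 2 were tested, Eif2s3y (-1.28) and Kdm5d (-0.47), with 3 and 2 KO arrays above background and 3 WT arrays each. A difference in sex between the pools cannot be told apart from genotype. The part of these differences in the values below was not tested, and fewer cells of a type cannot be told apart from less RNA per cell.

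Not one of the 49 tested probes of the acetylation genes passed the test, which asked for a limma adjusted p under 0.05 with a log2 difference of 1 or more. Over the whole array 0.811% of tested probes passed. At an unadjusted p under 0.05, 2 of the 49 probes were lower in KO (4.08%), against 6.6% of all tested probes, and 5 were higher in KO (10.2%), against 8.58% of all tested probes. These 5 belonged to Ep300, Kat7, Hdac5 and Brd8 (2 probes), and the 2 lower ones to Clock and Hdac11. The Ep300 probe and 1 of the Brd8 probes were above background on KO arrays alone and were tested only for that reason. The Kat7 and Hdac5 probes also entered the test through KO, with 1 and 2 WT arrays above background. The Hdac11 probe entered through WT, with 1 KO array above background. The part of this filter in the shares given here was not tested. All 3 KO arrays lay above all 3 WT arrays for 5 probes, where 11.3% of all tested probes did so, and below them for 1 probe, where 10.2% of all tested probes did so. With 1 value per gene, taken from its brightest tested probe, the median difference (KO minus WT) was -0.13 over the 29 measured genes, 13 above and 16 below 0, beside 0.033 over all 7141 measured genes. Of these shares 1 was above that of the array as a whole, higher readings in KO at an unadjusted p under 0.05, and the others were below it.

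**Figure D1:**
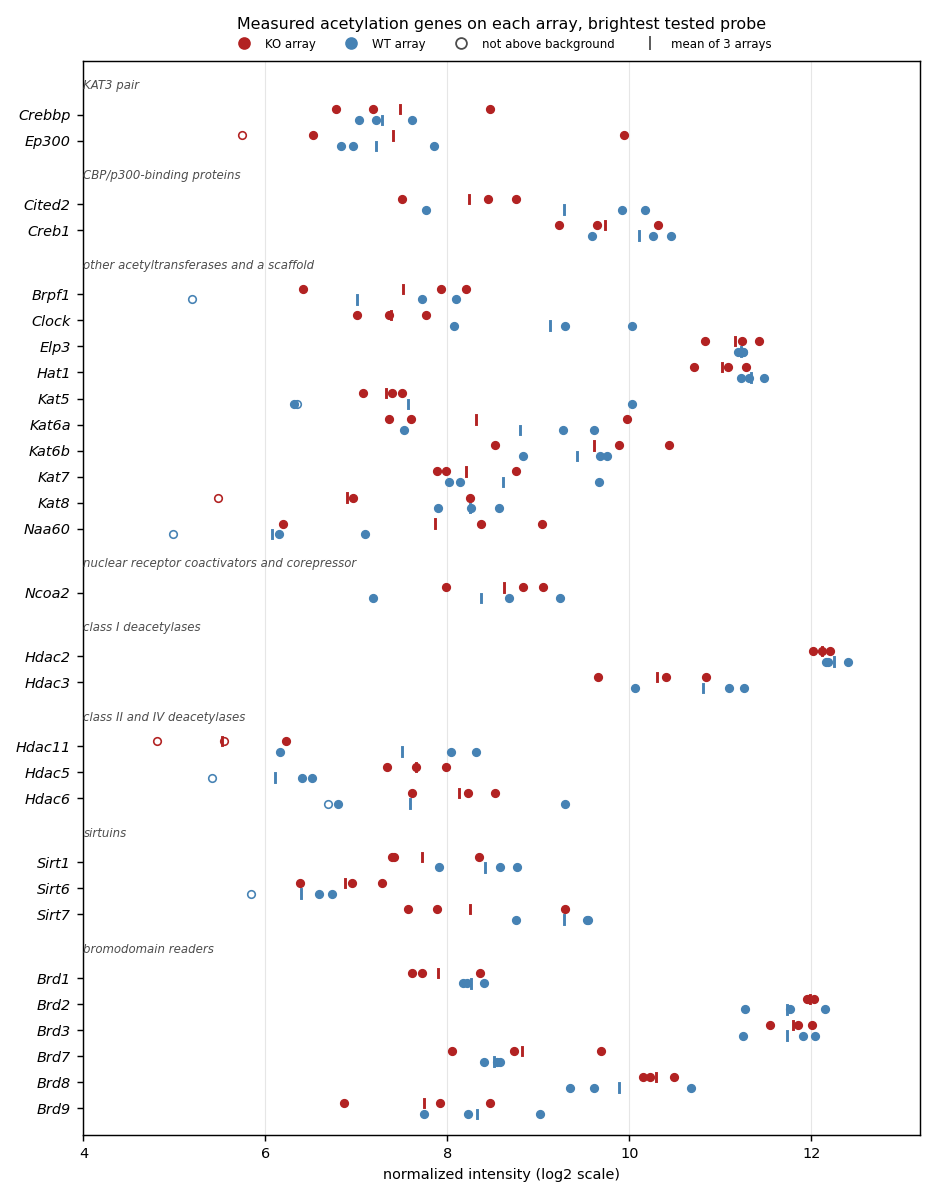
Normalized log2 intensity of the 29 measured acetylation genes on each array (brightest tested probe; KO in the upper row of each gene, WT in the lower row; bars are means of 3 arrays; open circles were not above background on that array). Clock and Hdac5 are the genes whose KO and WT arrays do not overlap with the probe shown.

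The KAT3 pair was targeted in the KO embryos. Crebbp encodes CBP, and its brightest probe (ILMN_1255457) read 7.18, 8.47 and 6.77 on the KO arrays and 7.21, 7.61 and 7.03 on the WT arrays, in log2 intensity as for all values below. The groups overlapped, with the highest and the lowest reading both in KO. The difference was 0.19 ± 0.49 (SE, limma, adjusted p = 0.910) and was -0.31 without KO replicate 2. A second Crebbp probe (ILMN_2695020) read 7.21, 8.33 and 6.68 in KO and 7.31, 7.54 and 7.03 in WT, a difference of 0.11 ± 0.47 (adjusted p = 0.945) that was -0.35 without KO replicate 2 and -0.019 without WT replicate 3. A further probe (ILMN_2746204) was above background on 2 KO and 2 WT arrays and was not tested. The sources used here do not place these probes relative to the deleted exons, so their levels are no check of the genotype.

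Ep300 encodes p300, and its probes read differently from one another. The brightest (ILMN_2800358) read 5.75, 6.52 and 9.94 on the KO arrays and 6.96, 7.85 and 6.83 on the WT arrays. KO replicate 3 stood far above the other 5 arrays, with a scanner intensity of 1042 over 40 beads (bead SE 17.1), whereas KO replicates 1 and 2 were below all WT arrays. The difference of 0.19 ± 1.09 (adjusted p = 0.960) was -1.08 without KO replicate 3 and -0.0029 without WT replicate 3.

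Another Ep300 probe (ILMN_2479839) read 7.85, 8.47 and 7.00 in KO and 5.36, 4.68 and 5.55 in WT. It was above background on all 3 KO arrays and on none of the WT arrays, and the groups were far apart. Because WT gave only background readings, the KO mean was at least 2.97-fold higher as a bound, which leaves out the spread of the KO arrays. The fitted difference of 2.57 ± 0.46 (adjusted p = 0.0741) is set against those readings and is not a measured size. For this bound each WT array was given the faintest signal that still passed the detection threshold on it, or the reading of the probe where that was larger, and the KO mean was set against the mean of these. The adjusted p was 0.0433 with median scaling in place of quantile normalization, 0.208 without the filter on dim probes, and 0.0433 to 0.217 over all alternatives. Of the remaining Ep300 probes, ILMN_2561221 was above background on 1 KO and 1 WT array and ILMN_2625134 on 0 KO and 0 WT arrays. With the mean of both tested probes the fitted Ep300 difference was 1.38, so that its size rests on the probe chosen.

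**Figure D2:**
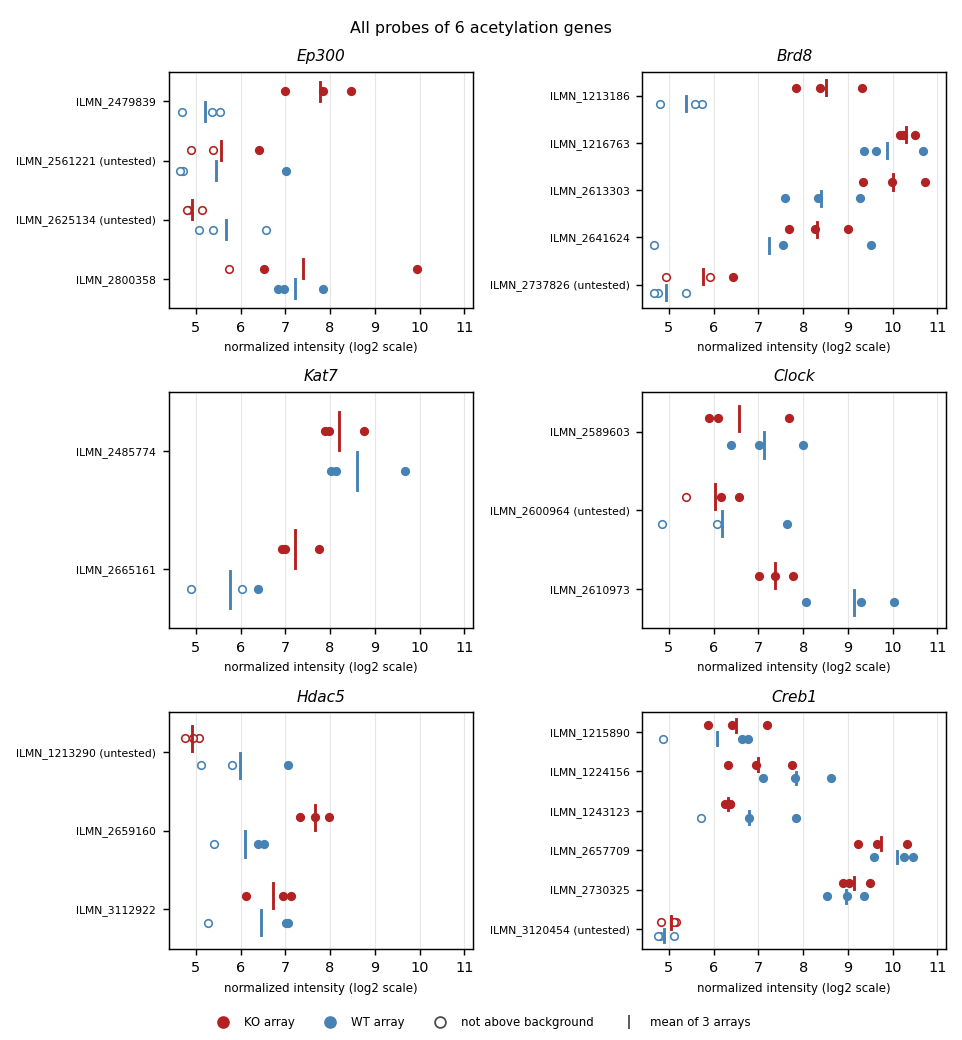
Normalized log2 intensity on each array for every probe of Ep300, Brd8, Kat7, Clock, Hdac5 and Creb1 (KO in the upper row of each probe, WT in the lower row; bars are means of 3 arrays; open circles were not above background). Ep300 probe ILMN_2479839 and Brd8 probe ILMN_1213186 are above background on all KO arrays and on no WT array. The other probes of Ep300 and Brd8 overlap, except Brd8 probe ILMN_2613303. Groups also do not overlap for Kat7 ILMN_2665161, Clock ILMN_2610973, Hdac5 ILMN_2659160 and the untested Hdac5 ILMN_1213290.

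Proteins that bind CBP or p300 were represented by Cited2 and Creb1. Cited2 binds a zinc finger domain of CBP and p300 and competes there with hypoxia-inducible factors. Its brightest probe (ILMN_2477221) read 7.50, 8.75 and 8.44 in KO and 7.76, 10.18 and 9.92 in WT. The KO arrays lay within or below the WT range, and the difference was -1.05 ± 0.72 (adjusted p = 0.574). The other Cited2 probes differed by -0.33 and -0.31.

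Creb1 encodes CREB, whose phosphorylated form recruits CBP. Its brightest probe (ILMN_2657709) read 9.65, 10.32 and 9.23 in KO and 10.26, 10.46 and 9.59 in WT, a difference of -0.37 with a 95% interval of -1.36 to 0.61. The groups overlapped for all 5 tested Creb1 probes, which differed by -0.85 to 0.40 and had both signs. The most negative of these (ILMN_1224156) read 6.93, 6.31 and 7.75 in KO and 7.10, 7.82 and 8.61 in WT, with KO replicates 1 and 2 below every WT array. Cited1, Cited4 and Atf1 were not measured. Cited4 was above background on 0 KO and 1 WT arrays, and Cited1 and the CREB relative Atf1 on none.

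Of the 13 other acetyltransferases with their scaffold, 10 were measured, with a median difference of -0.28, 3 above and 7 below 0. This median was 0.037 without WT replicate 3. Clock, the circadian factor for which an intrinsic acetyltransferase activity has been described, had the probe with the lowest readings in KO relative to WT in this group. It (ILMN_2610973) read 7.77, 7.00 and 7.36 in KO and 9.29, 8.07 and 10.02 in WT, and it was the 1 tested probe among the 49 with all KO arrays below all WT arrays. The difference was -1.75 ± 0.54 (unadjusted p = 0.0175 and adjusted p = 0.213 in limma), and it was -2.28 to -1.30 with 1 array left out. A second Clock probe (ILMN_2589603) read 7.69, 6.09 and 5.89 in KO and 7.01, 6.38 and 7.99 in WT. There the groups overlapped, with a difference of -0.57 ± 0.64 (adjusted p = 0.754).

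The MYST enzymes comprise Kat5, Kat6a, Kat6b, Kat7 and Kat8. Kat7 (HBO1) acetylates histones H3 and H4, and its probes had opposite signs. ILMN_2665161 read 7.75, 6.93 and 7.00 in KO and 6.03, 6.39 and 4.90 in WT, where 1 array was above background. All KO arrays lay above all WT arrays, with a difference of 1.45 ± 0.48 (unadjusted p = 0.0219 and adjusted p = 0.233 in limma). The brighter ILMN_2485774 read 7.88, 8.75 and 7.98 in KO and 8.02, 8.14 and 9.67 in WT. Its groups overlapped, and its difference of -0.40 ± 0.53 (adjusted p = 0.796) was 0.13 without WT replicate 3.

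Kat8 (MOF) acetylates histone H4 at lysine 16. It read 5.48, 8.25 and 6.96 in KO, with 2 arrays above background, and 8.57, 8.26 and 7.90 in WT. KO replicate 1 was the lowest of the 6, and KO replicate 2 lay inside the WT range. The difference of -1.35 ± 0.70 (adjusted p = 0.441) was -0.64 without KO replicate 1 and -2.02 without KO replicate 2.

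Kat5 (TIP60), which works in DNA repair and transcription, read 7.50, 7.39 and 7.07 in KO and 6.35, 6.31 and 10.03 in WT. The KO arrays were close together, whereas WT replicate 3 was far above the other WT arrays. Its difference was -0.24 with all arrays and 0.99 without WT replicate 3. Kat6a (MOZ) read 7.61, 7.35 and 9.98 in KO and 9.27, 9.61 and 7.52 in WT, overlapping, with a difference of -0.49. Kat6b (MORF) read 8.52, 9.88 and 10.44 in KO and 8.83, 9.76 and 9.68 in WT at its brightest probe (ILMN_2678373). Its groups overlapped at both tested probes, which differed by 0.19 and 0.24, and both differences turned negative without WT replicate 1 (-0.10 and -0.083). Brpf1, the scaffold that holds MOZ and MORF together with their partner subunits, read 8.21, 6.42 and 7.93 in KO and 5.20, 7.72 and 8.09 in WT. Its difference of 0.51 was -0.39 without WT replicate 1, the array that was not above background.

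Hat1 acetylates newly made histone H4 and read 10.71, 11.08 and 11.28 in KO and 11.31, 11.22 and 11.48 in WT. Elp3 is the catalytic subunit of Elongator, which modifies tRNA. Its brightest probe (ILMN_2820297) read 11.23, 11.43 and 10.83 in KO and 11.19, 11.25 and 11.25 in WT. These were among the most even of the acetylation genes, and both groups overlapped. The intervals of the difference were -0.98 to 0.35 for Hat1 and -0.72 to 0.59 for Elp3, so that each ended within 1 log2 unit of 0. A dimmer Elp3 probe (ILMN_1246873) read 7.98, 7.50 and 6.05 in KO and 7.29, 8.45 and 8.86 in WT, a difference of -1.02 ± 0.64 (adjusted p = 0.530).

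Naa60, an acetyltransferase of protein amino termini at the Golgi, read 6.19, 8.37 and 9.04 in KO and 4.98, 6.15 and 7.10 in WT. Its KO arrays spanned nearly 3 log2 units, and KO replicate 1 lay within the WT range. The difference was 1.79 ± 0.88 (adjusted p = 0.416), with values of 1.20 without KO replicate 3 and 2.62 without KO replicate 1. The GCN5 and PCAF genes Kat2a and Kat2b, and Cdyl, a chromodomain protein, were not measured. They were above background on at most 1 KO array and at most 1 WT array. Among the nuclear receptor coactivators, Ncoa2 (TIF2) was the only measured gene and read 9.05, 7.99 and 8.83 in KO and 9.24, 7.18 and 8.68 in WT. The groups overlapped at both tested Ncoa2 probes, which differed by 0.26 and 0.20, and the first of these was -0.34 without WT replicate 2. Ncoa1 was above background on no array and Ncoa3 on 1 KO and 0 WT arrays, and no probe carried Ncor1 as its single symbol in the annotation used.

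Class I deacetylases act in corepressor complexes, and Hdac2 and Hdac3 were measured. Hdac2, a subunit of the NuRD and Sin3 complexes, read 12.02, 12.12 and 12.21 in KO and 12.40, 12.16 and 12.19 in WT. The values of the 6 arrays lay close together, and the difference was -0.13 with an interval of -0.72 to 0.46. Hdac3, the deacetylase of the NCoR and SMRT complexes, read 10.41, 10.84 and 9.65 in KO and 11.10, 11.26 and 10.06 in WT, an overlapping pair of groups with a difference of -0.51. Hdac8 was above background on at most 2 KO and 1 WT arrays and was not tested, and no probe carried Hdac1 as its single symbol.

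Of the class II and IV enzymes 3 of 7 were measured, and Hdac5 and Hdac11 had unadjusted p-values under 0.05 in opposite directions. Hdac5, a class IIa enzyme that shuttles between cytoplasm and nucleus and represses MEF2, had a probe (ILMN_2659160) with 7.65, 7.34 and 7.99 in KO and 5.41, 6.40 and 6.51 in WT. All KO arrays lay above all WT arrays, of which 2 were above background. The difference was 1.55 ± 0.39 (unadjusted p = 0.00728 and adjusted p = 0.145 in limma) and 1.20 to 1.76 with 1 array left out. The second tested probe (ILMN_3112922) read 6.13, 7.12 and 6.95 in KO and 5.27, 7.02 and 7.06 in WT. Its groups overlapped, with a difference of 0.28 ± 0.58 (adjusted p = 0.880) that was -0.31 without WT replicate 1. A further Hdac5 probe (ILMN_1213290) was above background on 0 KO and 1 WT arrays and was not tested. Its KO readings of 4.76, 5.07 and 4.93 lay below its WT readings of 5.81, 5.11 and 7.07.

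Hdac11, the single class IV enzyme, which removes long fatty acyl groups as well, read 6.23, 4.81 and 5.54 in KO and 8.04, 8.32 and 6.16 in WT. It was above background on 1 KO array and on all WT arrays, and KO replicate 1 lay just above WT replicate 3. The difference was -1.98 ± 0.68 (unadjusted p = 0.0260 and adjusted p = 0.250 in limma), which is a fitted value since the KO mean includes background readings. Hdac6, which deacetylates tubulin, read 8.53, 8.23 and 7.61 in KO and 6.68, 6.80 and 9.29 in WT. WT replicate 3 was the highest of the 6, and the difference of 0.53 was 1.38 without it. Hdac6 is X-linked, and the pools differed in Xist, the RNA of the inactive X chromosome, which read 10.41, 10.24 and 10.38 in KO and 4.86, 4.86 and 5.15 in WT. The part of this difference in the Hdac6 values was not tested. Hdac4, Hdac7, Hdac9 and Hdac10 were above background on at most 2 KO and 2 WT arrays and were not tested.

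Sirtuins were measured for the nuclear members Sirt1, Sirt6 and Sirt7. Sirt1, which deacetylates p53 and histones, read 8.35, 7.39 and 7.41 in KO and 8.76, 8.57 and 7.91 in WT. KO replicate 1 lay within the WT range, the other KO arrays below it, and the difference was -0.70 ± 0.40. Sirt7, a sirtuin of the nucleolus, read 7.89, 7.57 and 9.29 in KO and 9.54, 8.75 and 9.55 in WT. Here KO replicate 3 lay within the WT range, and the difference of -1.03 ± 0.53 (adjusted p = 0.436) was -1.55 without that array. Sirt6, which acts on histone H3 and in DNA repair, read 6.39, 6.95 and 7.29 in KO and 5.84, 6.73 and 6.59 in WT, overlapping, with a difference of 0.49. Sirt2, Sirt3 and Sirt5, which lie largely outside the nucleus, were above background on at most 2 KO and 2 WT arrays and were not tested.

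All 6 bromodomain genes were measured, 4 with differences above and 2 with differences below 0, and a median of 0.16 that was -0.078 without KO replicate 1 and -0.075 without WT replicate 3. Brd8, a subunit of the TIP60 complex, had 4 tested probes, all with higher means in KO. Of these, ILMN_1213186 and ILMN_2641624 entered the test through KO, with 0 and 2 WT arrays above background. The part of this filter in the shared direction was not tested. ILMN_1213186 read 9.32, 7.84 and 8.38 in KO and 5.75, 5.58 and 4.81 in WT, and was above background on all KO arrays and no WT array. The KO mean was at least 4.97-fold higher as a bound, again without the spread of the KO arrays. The fitted difference of 3.14 ± 0.48 (limma adjusted p = 0.0532) is set against background readings in WT. Of the 49 probes it had the smallest adjusted p, and this was 0.0363 with median scaling and 0.0433 with a trend in the prior variance, but 0.148 without the filter on dim probes, within 0.0363 to 0.207 over all alternatives.

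The other Brd8 probes differed less between the genotypes. ILMN_2613303 read 9.99, 9.34 and 10.72 in KO and 9.28, 8.33 and 7.58 in WT. The lowest KO array lay just above the highest WT array, and the difference was 1.62 ± 0.56 (unadjusted p = 0.0263 and adjusted p = 0.251 in limma). The brightest, ILMN_1216763, read 10.49, 10.22 and 10.16 in KO and 10.68, 9.62 and 9.35 in WT, with overlapping groups and a difference of 0.41 ± 0.41 (adjusted p = 0.724). ILMN_2641624 read 8.27, 7.68 and 9.00 in KO and 7.54, 9.51 and 4.66 in WT. Its WT arrays spanned nearly 5 log2 units, and its difference of 1.08 ± 1.20 (adjusted p = 0.752) was -0.21 without WT replicate 3. Averaged over the 4 tested probes, background readings included, the fitted Brd8 difference was 1.56, against 0.41 for the brightest alone.

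Brd2 and Brd3 are BET proteins, which bind acetylated histones at active promoters. Brd2 read 11.95, 12.03 and 11.97 in KO and 11.76, 12.15 and 11.28 in WT, and Brd3 read 12.01, 11.55 and 11.85 in KO and 11.91, 12.04 and 11.25 in WT. For both the groups overlapped, and the intervals were -0.50 to 1.00 for Brd2 and -0.72 to 0.85 for Brd3. Brd7 and Brd9 are subunits of the PBAF and non-canonical BAF remodelling complexes. Brd7 read 9.69, 8.05 and 8.73 in KO and 8.54, 8.58 and 8.40 in WT at its brightest probe, and Brd9 read 8.47, 6.86 and 7.92 in KO and 7.74, 9.02 and 8.22 in WT. For both the KO arrays spread on either side of most WT arrays. The tested probes differed by 0.32 and 0.34 for Brd7 and by -0.58 and 0.11 for Brd9. Brd1, a scaffold of the HBO1 complex, read 7.72, 7.61 and 8.36 in KO and 8.17, 8.40 and 8.22 in WT at its brightest probe. KO replicate 3 lay within the WT range, and the tested Brd1 probes differed by -0.37 and -0.43.

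**Figure D3:**
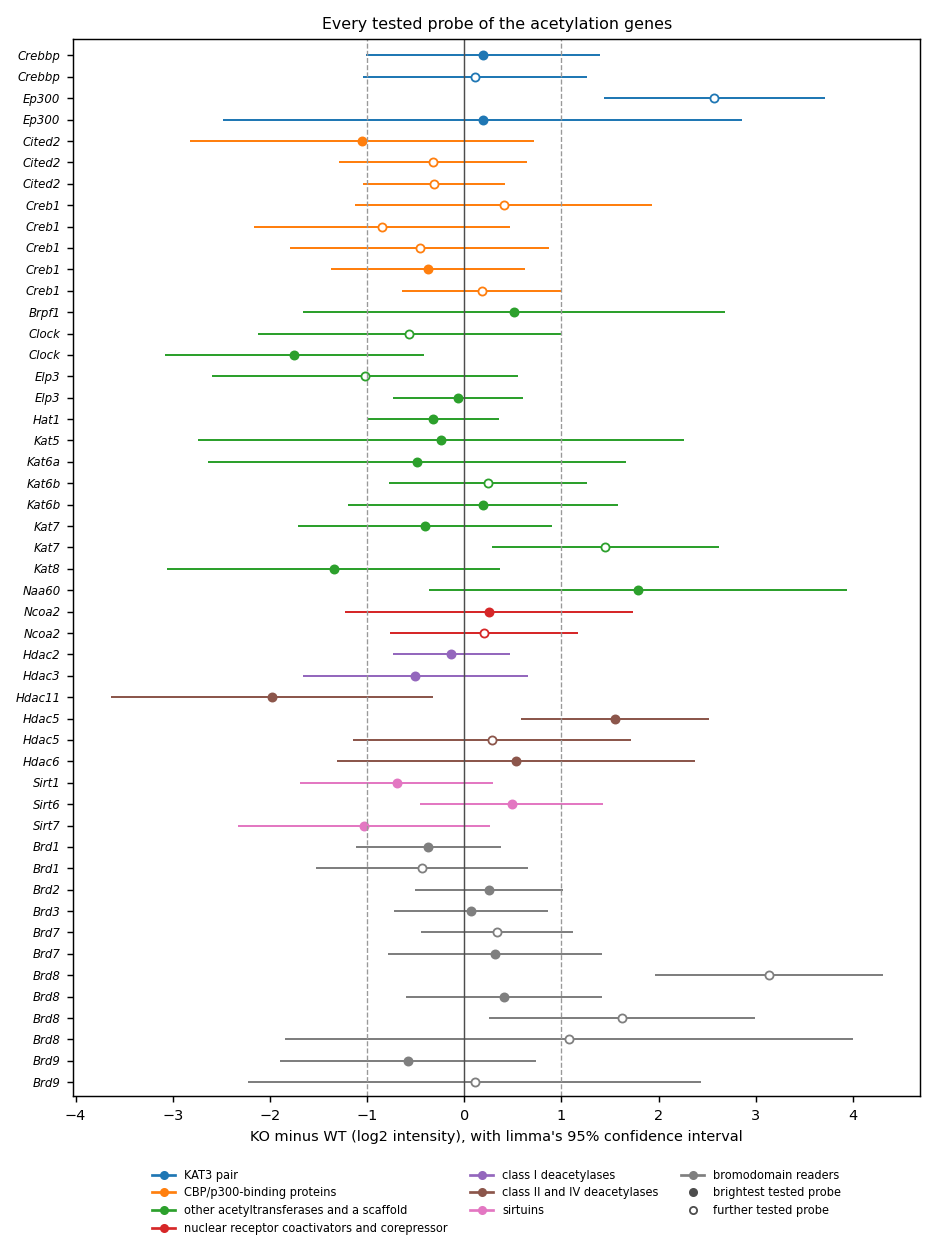
Difference (KO minus WT, log2 intensity) with limma's 95% confidence interval for the 49 tested probes, one row each, coloured by role; filled circles are the brightest tested probe of a gene, and dashed lines mark a difference of 1 log2 unit either way. The interval ends below 1 for 23 of the 49 probes, and most intervals include 0. Those of Ep300 probe ILMN_2479839 and Brd8 probe ILMN_1213186 rest on WT readings at background.

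The intervals show what these arrays could tell about related enzymes. The upper end of the 95% interval of the brightest probe was below 1 on the log2 scale, a doubling in KO, for 15 of the 29 measured genes. These were Cited2, Creb1, Kat7, Kat8, Hat1, Clock, Elp3, Hdac2, Hdac3, Hdac11, Sirt1, Sirt7, Brd1, Brd3 and Brd9. Other probes of 3 of these genes reached further, with upper ends of 2.61 for Kat7 (ILMN_2665161, all KO arrays above all WT arrays), 1.93 for Creb1 (ILMN_1215890) and 2.43 for Brd9 (ILMN_2913089). For 14 genes, Crebbp and Ep300 among them, the interval reached 1 or more, so a doubling in KO was not excluded by the interval. The lower end was above -1 for 10 genes. Both ends lay within 1 log2 unit for 4 genes, Hat1, Elp3, Hdac2 and Brd3, while the lower end was -2.59 at the dimmer Elp3 probe (ILMN_1246873). These intervals cover the spread between amplifications of 1 pool and not the spread between embryos.

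The differences of 1 or more were next followed through the processing. They belonged to 13 of the 49 tested probes, of which 12 kept their direction under every alternative and with each array left out. The exception was Brd8 probe ILMN_2641624. These probes were picked by size from the same arrays. Where the groups did not overlap, leaving out 1 array could not turn the direction, so the kept direction is no independent support. The Clock probe ILMN_2610973 gave -2.28 to -1.16, and Hdac11, with 1 KO array above background, gave fitted values of -2.65 to -1.21. For Ep300 ILMN_2479839 and Brd8 ILMN_1213186 the direction was set by detection in KO alone, and their sizes are bounds. The lowest adjusted p over the alternatives was 0.118 for this Clock probe and 0.133 for Hdac11.

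**Figure D4:**
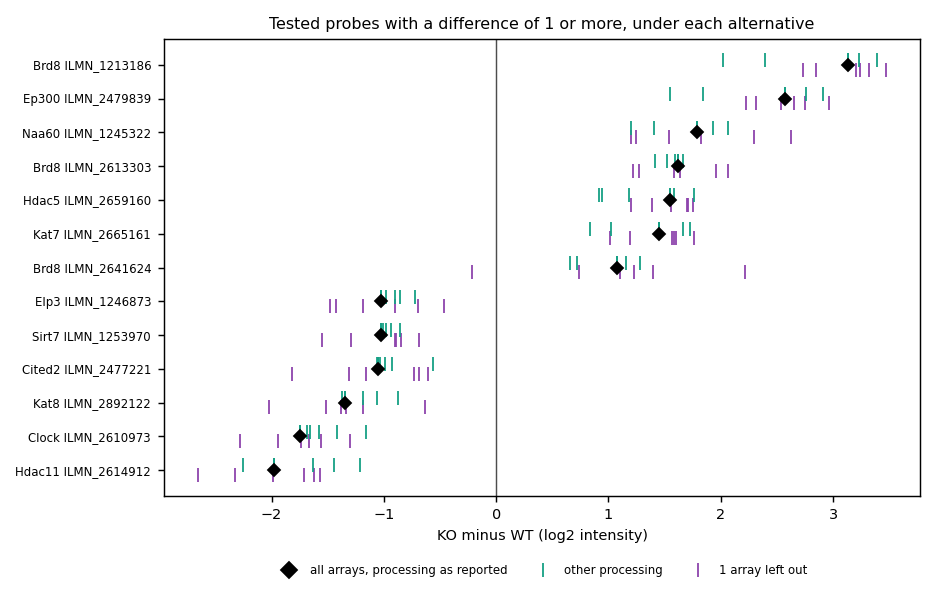
Difference (KO minus WT, log2 intensity) of the 13 tested probes with a difference of 1 or more either way, as reported (diamond), with other processing (upper ticks) and with 1 array left out (lower ticks). The ticks of Brd8 probe ILMN_2641624 cross 0, and those of the other 12 probes stay on 1 side of it.

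The partners of these enzymes were described from 5 further lists, in which again 0 probes passed the test. These lists were chosen by pathway, with earlier results of these data known. At an unadjusted p under 0.05, 6.6% of all tested probes were lower and 8.58% higher in KO, and the lists are given beside these shares. Other acetyltransferases and subunits of their complexes had 44 measured genes (median difference 0.15), with 5 of 78 tested probes lower (6.41%) and 4 higher (5.13%). The lower ones were probes of Naa20 and Naa25, subunits of an amino-terminal acetyltransferase (-1.06 and -1.89, adjusted p = 0.159 and 0.179), of Kansl2 (-0.92 and -0.80) and of Msl2 (-0.70), both partners of MOF. The higher ones belonged to Jade1, Supt7l (1.08), Epc1 (0.96) and, at another probe, Naa25 (0.77). At its brightest probe (ILMN_2768330) Epc1 differed by 0.58 (limma adjusted p = 0.719), with overlapping groups. Jade1, a scaffold of the HBO1 complex, read 9.29, 9.28 and 8.93 in KO and 7.71, 7.11 and 7.82 in WT, a difference of 1.62 ± 0.31 (adjusted p = 0.0821).

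Subunits of deacetylase complexes had 29 measured genes (median -0.11), with 0 of 41 probes lower and 4 higher (9.76%). Of these 4, 3 were probes of Rbbp7, a histone-binding subunit of NuRD and Sin3, with differences of 1.02 to 1.14 (adjusted p = 0.269 to 0.293), and 1 was a probe of Gatad2b, another NuRD subunit. Other acetyl-lysine readers had 20 measured genes (median 0.12), with 0 of 51 probes lower and 5 higher (9.80%), from Brwd3, Baz2b, Bptf, Zmynd11 and Brwd1. The Brwd3, Baz2b and Bptf probes entered the test through KO, with 0, 2 and 2 WT arrays above background. The part of this filter in the share was not tested. At their brightest probes Baz2b and Bptf differed by 0.094 and -0.23. A dim probe of the bromodomain gene Brwd3 (ILMN_3112122) was above background on all KO arrays and no WT array. Its KO mean was at least 2.68-fold higher as a bound, without the spread of the KO arrays (limma adjusted p = 0.0656). The brightest Brwd3 probe (ILMN_1220624) read 9.77, 10.18 and 9.81 in KO and 10.24, 9.36 and 8.72 in WT, overlapping, with a difference of 0.48 (adjusted p = 0.692). Rbbp7 and Brwd3 are X-linked like Hdac6, and the part of the Xist difference (fitted 5.39, WT at background) in their values was not tested. Genes for acetyl-CoA and NAD supply had 7 measured genes (median -0.14), with 0 of 9 probes lower and 0 higher.

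The list of the CREB family and its CRTC coactivators had 6 measured genes beside Creb1 (median 0.36). They were Creb3, Creb3l2, Crebl2, Crebzf, Atf2 and Atf4, and no CRTC gene was measured. Of only 10 tested probes 2 were lower (20%) and 2 higher (20%), beside 6.6% and 8.58% of all tested probes. Creb3, a membrane-bound factor of the secretory pathway, read 8.23, 8.17 and 7.32 in KO and 10.04, 10.59 and 10.21 in WT. All KO arrays lay well below all WT arrays, and the difference was -2.37 ± 0.35 (adjusted p = 0.0520). The other lower probe was of Atf2 (ILMN_3078995, -1.29, adjusted p = 0.209), whose brightest probe differed by 0.24. Creb3l2, a relative of Creb3, had 8.74, 8.01 and 10.47 in KO and 6.80, 5.45 and 5.46 in WT, where 1 array was above background, with a fitted difference of 3.17 ± 0.73 (adjusted p = 0.120). The other higher probe was of Crebzf (0.81, adjusted p = 0.301).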

How the data were processed

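RNA of laser-microdissected ectoderm (3 embryos pooled per genotype) was amplified in triplicate and hybridised to 6 Illumina MouseWG-6 v2 arrays on 1 BeadChip. The authors deposited, for each array and probe, the scanner's bead-averaged intensity on a linear scale, not normalized between arrays, with its bead standard error and bead count (median 43 to 44 beads). They also deposited a detection p-value, which compares each probe with the negative controls. A second deposited table of intensity, processed by the authors with cubic splines in GenomeStudio, whose version the sources used here do not give, served as an alternative.

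The limma package (3.58.1, under R 4.3.3) was used. The normexp background correction took its parameters from the detection p-values (offset 16), and intensities were quantile-normalized and log2-transformed. A linear model was fitted over the 12697 probes that had a detection p-value under 0.01 on every array of KO, of WT or of both (lmFit, eBayes, 4 residual and 2.16 prior degrees of freedom). P-values were Benjamini-Hochberg adjusted over these, and a probe passed at an adjusted p under 0.05 with a log2 difference of 1 or more. The methods' GenomeStudio test was not run. The fitting script was tested on simulated data. Settings changed 1 at a time were the background correction, offset, normalization, probe filter, prior variance trend, replicate block, probe summary, fold minimum and each array left out. Arrays were left out of the fit only, after normalization and filtering.

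Probe symbols came from the platform annotation (34885 probes with 1 symbol, 18 with several, 10378 with none; 34807 matched to a current gene table by Entrez identifier). The genes and lists were chosen with earlier results of these data known. Full statistics were given for Crebbp and Ep300, for genes with a tested probe at an unadjusted p under 0.05 or a log2 difference of 1 or more, and for genes above background in 1 genotype only.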

Additional observations from a re-analysis of the deposited data

How the results depend on the processing

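The median over the 29 genes was -0.25 to -0.054 under all alternatives, and 0 acetylation probes passed under any except median scaling (2 higher) and the prior variance trend (1 higher). Of 700 single-probe values under alternatives, 672 kept their direction and 3 passed the test. Under median scaling 1 acetylation probe was lower in KO at an unadjusted p under 0.05, and without the filter on dim probes 4 had all KO arrays below all WT arrays. With 1 array left out, 1 to 3 probes were lower at that p (1 without KO replicate 2 or WT replicate 2), 3 to 7 had all KO arrays below all WT arrays, and 5 to 8 had them above.

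Over all 12697 probes, 50 passed lower and 53 higher in KO. These counts were 15 and 11 without background correction, 24 and 27 with an offset of 50, 29 and 63 with median scaling, 68 and 102 with the deposited processed values, 36 and 29 without a filter, 18 and 21 with the looser filter (3 of 6 arrays), and 76 and 80 with the variance trend. With an array left out, no probe passed, except 3 higher ones without KO replicate 2, while 681 to 840 probes were lower and 804 to 1194 higher at an unadjusted p under 0.05. With the replicate block, 0 passed in limma (767 lower and 1044 higher at an unadjusted p under 0.05), and 0 acetylation probes passed (lowest adjusted p 0.207). Same-numbered arrays deviated with correlations of -0.026 to 0.0013, so the numbers gave no pairing.

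Of the reversals, 3 came from the processing: Brd9 ILMN_2913089 (-0.020 without background correction), Brd3 (-0.073 with median scaling) and Kat7 (0.52 as the mean of its tested probes). The other 25 came from leaving out 1 array. Directions turned without KO replicate 1 (Brd3, Brd7, Brd9), KO replicate 2 (Crebbp, Ncoa2), KO replicate 3 (Ep300, Kat6b, Elp3, Brd9), WT replicate 1 (Kat6b, Brpf1, Hdac5, Brd9, Creb1), WT replicate 2 (Ncoa2) and WT replicate 3 (Crebbp, Ep300, Kat5, Kat7, Brd3, Brd8, Creb1). With 1 array left out the differences ranged over Brd3 ILMN_1222231 (-0.17 to 0.22), Brd7 ILMN_1257340 (-0.12 to 0.70), Brd9 ILMN_2913089 (-0.88 to 0.78), Crebbp ILMN_1255457 (-0.31 to 0.54), Crebbp ILMN_2695020 (-0.35 to 0.48), Ncoa2 ILMN_2416763 (-0.16 to 0.40), Ep300 ILMN_2800358 (-1.08 to 1.02), Kat6b ILMN_2678373 (-0.22 to 0.74), Elp3 ILMN_2820297 (-0.19 to 0.10) and Kat6b ILMN_1224783 (-0.083 to 0.51). The same ranges were Brpf1 ILMN_2800859 (-0.39 to 1.06), Hdac5 ILMN_3112922 (-0.31 to 0.59), Creb1 ILMN_1215890 (-0.21 to 0.75), Ncoa2 ILMN_1256574 (-0.34 to 0.69), Kat5 ILMN_2839973 (-0.87 to 0.99), Kat7 ILMN_2485774 (-0.70 to 0.13), Brd8 ILMN_2641624 (-0.21 to 2.22), Creb1 ILMN_1243123 (-0.99 to 0.068) and Creb1 ILMN_2730325 (-0.033 to 0.38).

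The precision is limited by 3 amplifications of 1 pool per genotype, and for 9 of the 29 genes by signal that was not above background on every array. Probe positions within transcripts were not used here. The cause of the changes with the processing was not tested.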
